A study of Mus musculus with 12 samples.

Results

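The genes described here are the matrix metalloproteinases (Mmp), their tissue inhibitors (Timp) and the ADAMTS proteases, which carry a disintegrin-like domain and thrombospondin repeats. Members were taken by symbol, as Mmp, Timp or Adamts followed by a number, which gave 46 of the 55487 gene identifiers in the count table: 23 Mmp, 4 Timp and 19 Adamts genes. The 5 ADAMTS-like genes, which lack the protease domain, fall outside that choice. Of the 46 members, 36 passed the filter on low counts and were tested (19 Mmp, 3 Timp and 14 Adamts).

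RNA was read from tumours grown from the murine squamous carcinoma line Sq-1979, which models cancer of the head and neck. Cells in Matrigel, a basement membrane extract, had been placed subcutaneously in male hosts of the C3H/HeN strain aged 6 weeks. From day 20 the animals received vehicle, anti-PD1 (an antibody that blocks the T cell checkpoint receptor PD-1), regorafenib at 5 mg/kg/day (an oral inhibitor of VEGF receptors and other kinases), or both. Each of these 4 groups, called vehicle, anti-PD1, regorafenib and combination, had 3 libraries. The labels name daily oral gavage as the route for every arm and give no antibody dose or vehicle composition. All groups share the 1 tumour line, the strain, the sex and the site under the skin, so none models the tissue of origin. Nothing in the labels says that the 3 libraries of a group came from separate mice, so the p-values measure the spread between these libraries, which may be technical. Tumour and host are both mouse, so a read does not tell which cell it came from, and in bulk tumour RNA fewer cells of a type and less RNA per cell cannot be told apart.

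Matrix metalloproteinases are zinc-dependent enzymes made as inactive precursors, and together they cleave collagens, gelatin, elastin, laminin, fibronectin and many surface proteins. TIMPs bind the active site and block it, and TIMP2 also links the membrane-anchored enzyme MMP14 to the MMP2 precursor during its activation. ADAMTS proteases are secreted; some trim procollagens and others cut proteoglycans such as aggrecan and versican. In carcinomas many of these genes are transcribed mainly by fibroblasts and myeloid cells, and others, such as Mmp7, by the epithelial cells themselves.

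Library totals ran from 22591835 to 28209036 counts, so precision was set by the spread between libraries for all but the rarest members. The squamous markers fixed for the label check, including Krt14, summed to between 11754 and 17487 CPM (counts scaled to a common library size with TMM factors) in every library. The summed level of fibroblast markers differed between libraries of a group. The 12 markers, none of which was at 0, summed to 24500 to 32736 CPM in the vehicle libraries. The same sum was 6557, 30307 and 32717 CPM in anti-PD1 libraries 1, 2 and 3, and 11440, 30354 and 5710 CPM in the regorafenib libraries. In the combination libraries it was 5999, 4915 and 12933 CPM. In this sum anti-PD1 library 1 and regorafenib library 2 stood apart from the others of their groups. Among the members, anti-PD1 library 1 was the lowest of the 6 libraries without regorafenib for 24 of the 36 tested members (66.7%, against 27.5% of all 16974 genes tested). Regorafenib library 2 was the highest of the 6 libraries with the drug for 19 members (52.8%, against 21.0% of all genes).

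Levels per kilobase of exon were highest for Mmp13, a collagenase, at 210.5 ± 25.7 CPM per kilobase (SD, n = 3) in the vehicle tumours. Timp2 followed at 199 ± 17.4 CPM per kilobase, a difference smaller than either spread. Mmp2, a gelatinase, came next at 134 ± 17.1 CPM per kilobase. Mmp7 (matrilysin), Mmp14 (the main membrane-anchored enzyme) and Mmp11 (a furin-activated stromelysin) stood at 89.2 ± 13.6, 87.2 ± 6.61 and 77.8 ± 18.3 CPM per kilobase, and did not differ beyond their spread. Timp1, Mmp3, Adamts2 and Mmp10 lay between 26.2 and 37.1 CPM per kilobase, and the spread of Mmp3 (12.7) covers the other 3 means. The ADAMTS genes were lower: after Adamts2 the highest were Adamts4 at 14.3 ± 0.830, Adamts1 at 10.6 ± 2.23 and Adamts12 at 9.55 ± 0.709 CPM per kilobase. In the combination tumours the order changed at the top, with Mmp3 at 99.99 ± 16.2 CPM per kilobase second to Mmp13 at 210.0 ± 83.3, and Timp2 at 94.4 ± 21.1.

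**Figure D1:**
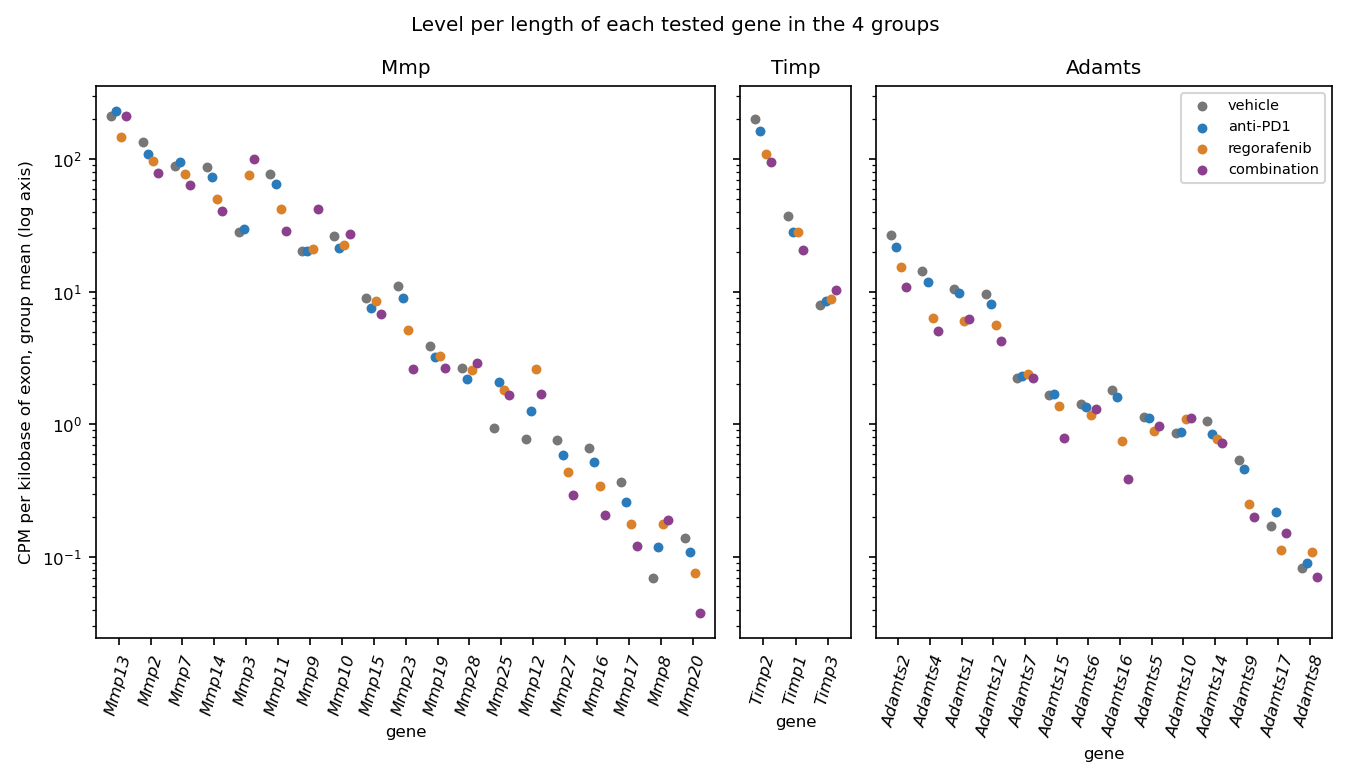
Group mean level of each of the 36 tested genes in CPM per kilobase of exon (log axis), in 3 panels for the Mmp, Timp and Adamts families, with 1 point per group. Mmp13 and Timp2 are at the top in vehicle, and the Mmp3 points of the regorafenib and combination groups lie above its vehicle and anti-PD1 points.

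The average effect of regorafenib, which is the mean of its log2 fold change without and with anti-PD1, was the comparison in which most members passed the test. Mmp3 rose and 6 members fell: Timp2, Mmp17, Adamts1, Adamts9, Adamts12 and Adamts4. These 7 are 19.4% of the tested members, where 9.49% of all genes tested passed (edgeR quasi-likelihood test, Benjamini-Hochberg adjusted p under 0.05). The 6 that fell are 16.7% of the tested members, beside 3.32% of all genes, and the single riser stands beside 6.16%. The log2 fold change was negative for 25 of 36 members (69.4%, against 49.5% of all genes), with a median of -0.41 against 0.003 over all genes. At an unadjusted p under 0.05 there were 3 higher and 13 lower members, beside 15% and 12.9% of all genes. DESeq2 passed 11 members, beside 16.5% of all genes it tested. The fibroblast markers moved the same way: 11 of 12 were negative, with a median of -0.67 and 1 past the threshold (Lum). Their part in the result was not tested.

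The count of 7 members, and that of 1610 over all genes, depended on which libraries were in the fit. Without anti-PD1 library 1 there were 9 members among 2048 genes, without regorafenib library 2 there were 13 among 1778, and without combination library 3 there were 6 among 1659. Without vehicle library 1 or vehicle library 3, 1 member passed, among 556 and 552 genes. Without anti-PD1 library 2 or combination library 2, 1 member passed, among 460 and 522 genes. The count was 2 without vehicle library 2, regorafenib library 1 or regorafenib library 3, among 556, 1411 and 1188 genes. It was 3 without anti-PD1 library 3 or combination library 1, among 952 and 998 genes. Mmp3 passed in all 12 of these fits.

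**Figure D2:**
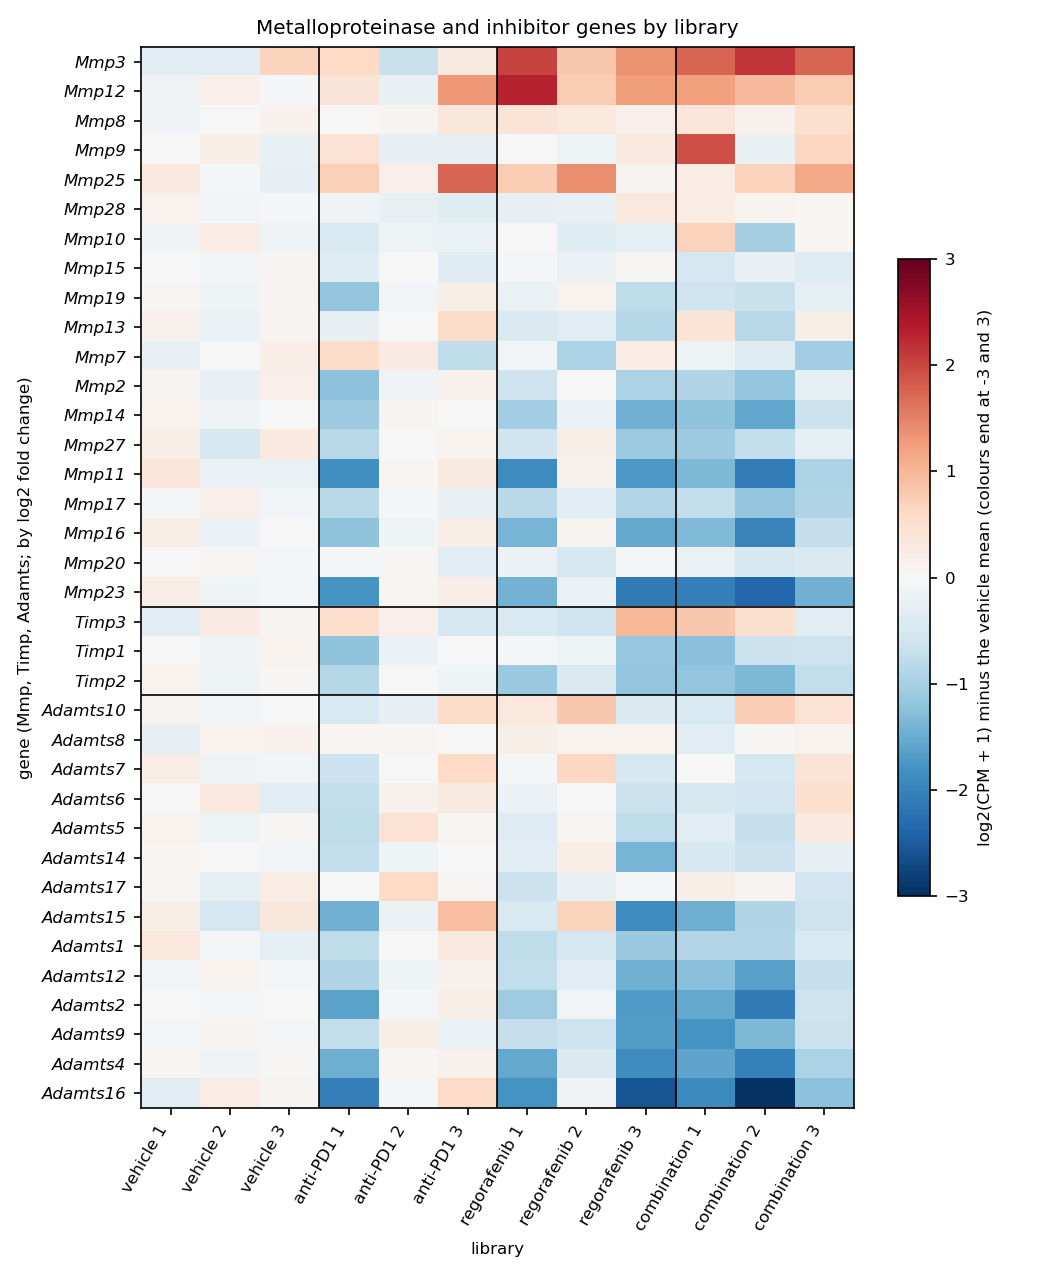
Each row is a tested gene, grouped by family and ordered by the average regorafenib effect, and each column a library; colour is log2(CPM + 1) minus the vehicle mean (red higher, blue lower, ending at -3 and 3). Anti-PD1 library 1 is blue in many rows where its group's other libraries are not, and the Mmp3 row is red in all 6 libraries with regorafenib.

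**Figure D3:**
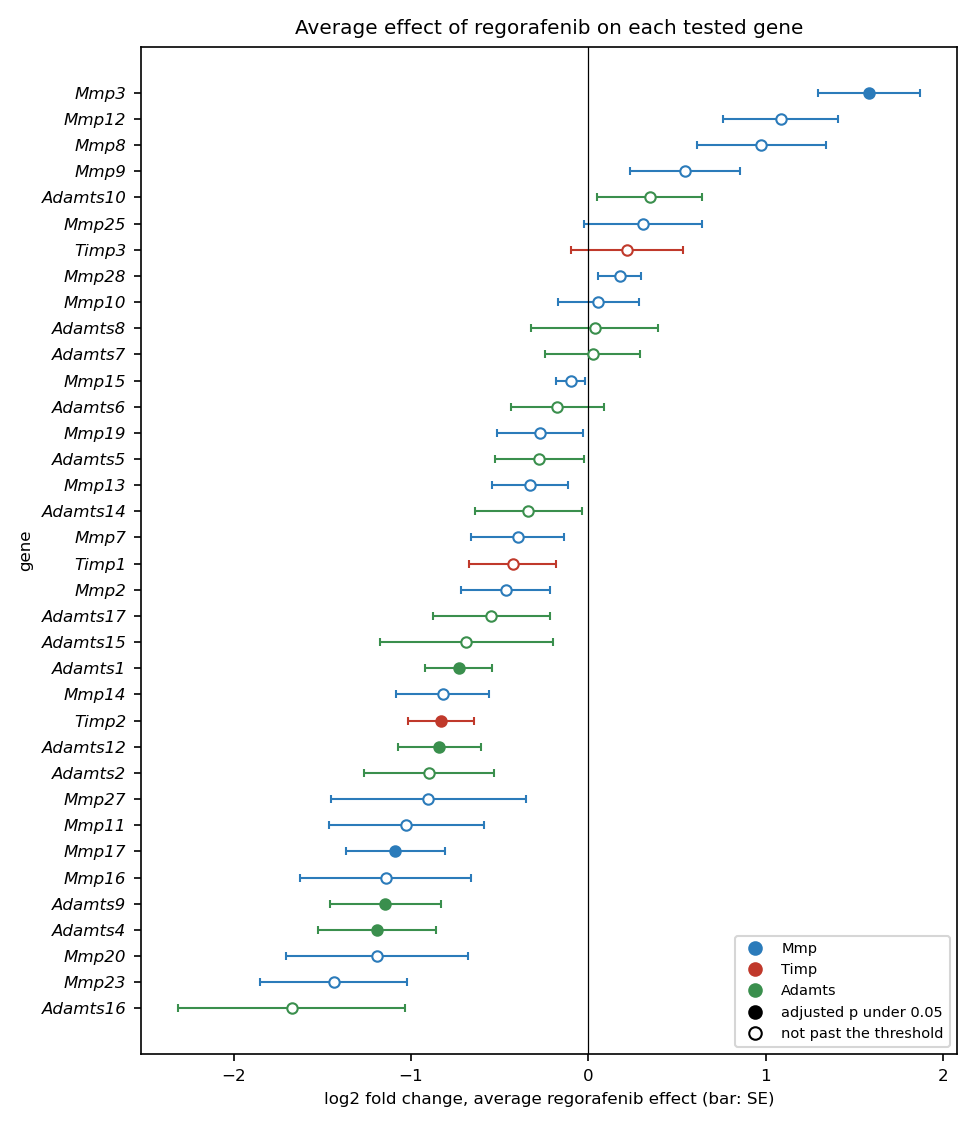
Average log2 fold change of regorafenib with its SE for the 36 tested genes, coloured by family; filled points passed the adjusted p of 0.05. Mmp3 is the highest filled point at 1.58, and the other 6 filled points lie between -0.73 and -1.19.

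Mmp3 encodes a stromelysin, a protease of broad range that also activates other metalloproteinase precursors (chr9:7445822-7455975, plus strand, GRCm38). Its level was 37.8, 37.6 and 77.2 CPM in the vehicle libraries and 73.1, 29.6 and 58.3 CPM in the anti-PD1 libraries. With regorafenib it was 199, 85.2 and 124 CPM, and in the combination it was 164, 214 and 163 CPM. All 6 libraries with regorafenib were above all 6 without it, a separation upward seen in 2.87% of all genes. Mmp3 was picked by the test on the same libraries, so this separation adds no support. The average rise was 1.58 on the log2 scale (SE 0.287, 2.99-fold, edgeR adjusted p = 0.0130). Over the 12 fits that leave out a library the log2 fold change stayed between 1.39 and 1.80 and the highest adjusted p was 0.0429. Unlike the members that fell, Mmp3 was not low in anti-PD1 library 1, at 73.1 CPM, where the fibroblast sum was 6557 CPM and the neutrophil sum 57.5 CPM. That is 1 library, and the part of any cell type in the Mmp3 values was not tested. As a share of all Mmp levels per kilobase, Mmp3 made up 3.98% ± 1.59 in vehicle, 13.8% ± 5.91 with regorafenib and 17.5% ± 7.39 in the combination (SD, n = 3). With anti-PD1 alone the mean share was 4.71%. Anti-PD1 library 1, at 7.67%, was above regorafenib library 2, at 7.61%, so libraries with and without regorafenib overlapped in this share.

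Mmp3 lies in a cluster of 10 Mmp genes within 427 kb of chromosome 9 (7272514 to 7699585), of which 8 were tested. Mmp3 was the only 1 of the 8 past the threshold in the average regorafenib effect, where 9.49% of all genes tested passed. The log2 fold changes of the others ran from -1.19 for Mmp20 (the enamel protease) to 1.08 for Mmp12. Of the 8, 4 were positive and the median was -0.14, where 49.5% of all genes were negative. Mmp10, a stromelysin close to Mmp3 in sequence, was at 45.1 ± 6.15 CPM in vehicle, 37.1 ± 4.04 with anti-PD1, 38.6 ± 5.34 with regorafenib and 47.0 ± 25.3 in the combination (SD, n = 3). Its average log2 fold change was 0.06 (SE 0.228, adjusted p = 0.901). Of the 31-base words in the annotated exons, 11.4% of those of Mmp3 also occur in Mmp10, so reads from the shared stretches could be split between them.

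Of the 10 cluster genes, 7 share a pair of promoter motifs, shown here because Mmp3 rose while the tested neighbours with the same pair did not pass the test. In RefSeq promoter windows (GRCm38.p6, 250 bases before to 50 after each annotated start), 32 of the 46 members had a window. Both strands were searched for TGAGTCA, the binding sequence of AP-1 factors, for TATAAA, the TATA box, and for GGGCGG, the GC box. Matches to different motifs among these cannot share a base. TGAGTCA was found in 7 members, all in this cluster, where 5.2% of all 32851 windows hold it. Each of the 7 also held TATAAA (13.6% of all windows), and 0.941% of all windows hold both. The windows of the other 3 cluster genes, Mmp8, Mmp20 and Mmp27, hold no TGAGTCA; Mmp8 and Mmp20 hold TATAAA and Mmp27 neither. Each line gives the stretch from the AP-1 match to the TATA match on the gene's strand, with both in capitals; in Mmp13 the AP-1 match is on the opposite strand, and the Mmp12 stretch runs 10 bases past the annotated start.
Mmp3 (chr9:7445776-7445820, plus strand): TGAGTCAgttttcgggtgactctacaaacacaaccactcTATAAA
Mmp10 (chr9:7502279-7502318, plus strand): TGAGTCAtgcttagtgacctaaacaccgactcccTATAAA
Mmp12 (chr9:7347330-7347383, plus strand): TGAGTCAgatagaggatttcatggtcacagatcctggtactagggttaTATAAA
Mmp13 (chr9:7272479-7272503, plus strand): TGACTCAtcactatcatgcTATAAA
Mmp7 (chr9:7692027-7692069, plus strand): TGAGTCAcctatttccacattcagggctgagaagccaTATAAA
Mmp1a (chr9:7464068-7464118, plus strand): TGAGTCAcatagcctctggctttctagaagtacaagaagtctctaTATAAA
Mmp1b (chr9:7388070-7388119, minus strand): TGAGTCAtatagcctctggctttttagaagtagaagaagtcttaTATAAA
In Mmp3 the AP-1 match spans bases -46 to -40 from the start and in Mmp10 bases -63 to -57. The average regorafenib effect on these genes was 1.58 for Mmp3, 0.06 for Mmp10, 1.08 for Mmp12, -0.33 for Mmp13 and -0.40 for Mmp7 on the log2 scale, and Mmp1a and Mmp1b were too rare to test. A match is a description of the letters, not a measured site.

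**Figure D4:**
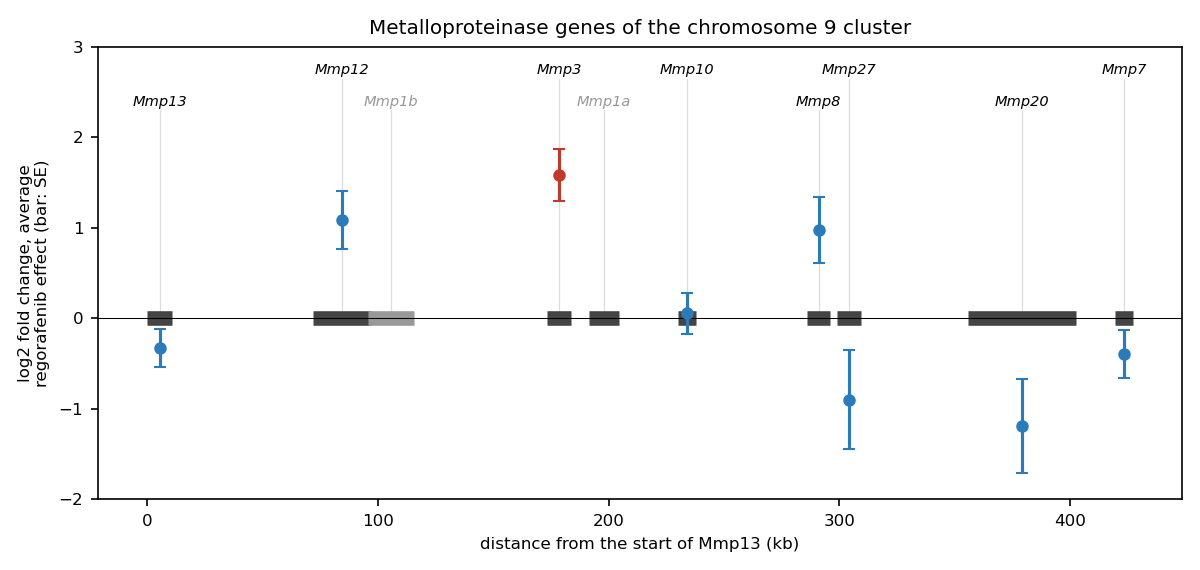
The 10 Mmp genes of chromosome 9 by distance in kb from the start of the first gene (dark grey bars plus strand, light grey minus strand), with the average log2 fold change of regorafenib and its SE above each of the 8 tested genes. Mmp3 (red) is past the threshold at 1.58 and the 7 blue points are not.

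Mmp12 (macrophage elastase) and Mmp8 (a neutrophil collagenase) are described for their separation from vehicle, and were chosen after their values were seen. Each lay above the vehicle range with regorafenib alone and in the combination, as did 10.6% and 19.6% of all genes, so the separation is common. Mmp12 stood at 5.08, 6.34 and 5.32 CPM in vehicle and at 7.55, 4.65 and 15.2 CPM with anti-PD1. It was 31.7, 10.2 and 14.6 CPM with regorafenib and 14.5, 11.9 and 10.1 CPM in the combination. Its average regorafenib effect of 1.08 (SE 0.324) missed the threshold, with an edgeR adjusted p of 0.0593; anti-PD1 library 3 is the highest library without the drug and lies inside the range of the treated libraries. The 10 macrophage markers summed to 772 to 967 CPM in vehicle, 736 to 1428 CPM with anti-PD1 (1428 in library 3), 746 to 1487 CPM with regorafenib and 619 to 1611 CPM in the combination. Combination library 1, the highest of its group for Mmp12, had the lowest of these sums. The part of these cells was not tested. Mmp8 averaged 0.167 ± 0.0946 CPM in vehicle and 0.460 ± 0.170 CPM in the combination (SD, n = 3), and its average regorafenib effect was 0.98 (SE 0.364, adjusted p = 0.111). With anti-PD1 alone against vehicle its log2 fold change was 0.78 (SE 0.553, edgeR adjusted p = 0.865). These levels rest on few counts. The neutrophil markers summed to 12.5 to 24.7 CPM in vehicle, 12.3 to 57.5 CPM with anti-PD1 (57.5 in library 1), 22.6 to 43.2 CPM with regorafenib and 39.6 to 61.1 CPM in the combination, with Ly6g and Camp under 0.1 CPM in each group mean. Of the 12 neutrophil markers 9 were tested, and 2 of them, Clec4d and Trem1, rose in the average regorafenib effect, where 6.16% of all genes rose. The part of these cells in the Mmp8 values was not tested.

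The other abundant secreted enzymes did not pass the test. Mmp13 was at 614, 485 and 589 CPM in vehicle, 469, 552 and 824 CPM with anti-PD1, 417, 444 and 309 CPM with regorafenib, and 739, 312 and 633 CPM in the combination. The 3 regorafenib libraries were below the vehicle range and the combination libraries spread across it, and the average effect was -0.33 (SE 0.214, adjusted p = 0.344). Mmp2, which cleaves gelatin and basement membrane collagen, was at 473, 387 and 496 CPM in vehicle and 192, 417 and 489.8 CPM with anti-PD1. It was 291, 454 and 231 CPM with regorafenib and 239, 197 and 365 CPM in the combination, with an average effect of -0.47 (SE 0.251, adjusted p = 0.256). All 3 combination libraries of Mmp2 were below vehicle, but the low anti-PD1 library 1 and the high regorafenib library 2 made the other groups overlap. Mmp7 was at 80.4, 96.1 and 109 CPM in vehicle, 139.6, 112 and 55.5 CPM with anti-PD1, 89.6, 48.3 and 111 CPM with regorafenib, and 84.9, 73.0 and 45.03 CPM in the combination. Its groups overlapped throughout (average effect -0.40, SE 0.262, adjusted p = 0.354). Mmp9, the other gelatinase, named after its values were seen, was even at 71.6 ± 10.3 CPM in vehicle, 72.0 ± 20.7 with anti-PD1 and 74.1 ± 12.1 with regorafenib (SD, n = 3). In the combination it was 275, 60.7 and 109.6 CPM, so the group's high mean rested on library 1. Of the remaining secreted enzymes, Mmp11 had an average effect of -1.03 (SE 0.435, adjusted p = 0.154) and went from 216 ± 51.0 CPM in vehicle to 80.0 ± 30.2 CPM in the combination (SD, n = 3). Mmp27, Mmp19 and Mmp28 (epilysin) had average effects of -0.90, -0.27 and 0.18, none past the threshold. Of the Mmp19 exonic bases, 22.3% overlap exons of Tmem198b on the opposite strand. Tmem198b had 3190 counts over all libraries, beside 3543 for Mmp19. The strand setting of the counting is not given, so Mmp19 values may hold reads of Tmem198b.

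Of the 5 membrane-type enzymes tested, 1 fell and 4 had a negative average regorafenib effect, beside 3.32% and 49.5% of all genes. Mmp17, which is held at the surface by a lipid anchor, was at 2.27, 2.80 and 2.24 CPM in vehicle and 0.933, 2.30 and 1.94 CPM with anti-PD1. It was 0.930, 1.71 and 0.849 CPM with regorafenib and 1.06, 0.522 and 0.833 CPM in the combination. It fell by 1.09 on the log2 scale (SE 0.280, 2.13-fold lower, edgeR adjusted p = 0.0373), and passed in 3 of the 12 fits that leave out a library, those without anti-PD1 library 1, regorafenib library 2 or combination library 1. Mmp14, which cleaves collagen at the cell surface and activates MMP2, was at 557, 478 and 524 CPM in vehicle and 244, 545 and 515 CPM with anti-PD1. It was 250.04, 456 and 191 CPM with regorafenib and 224, 174 and 329 CPM in the combination. Every library with regorafenib was below the lowest vehicle library, anti-PD1 library 1 was as low as the treated ones, and the average effect of -0.82 (SE 0.261) missed the threshold at an adjusted p of 0.0719. Mmp23, made with a membrane anchor and released by furin cleavage, was at 29.2, 23.2 and 24.5 CPM in vehicle and 6.75, 26.9 and 29.3 CPM with anti-PD1. It was 9.01, 21.99 and 5.13 CPM with regorafenib and 5.39, 4.18 and 8.80 CPM in the combination. The average effect was -1.44 (SE 0.415, adjusted p = 0.0540). Mmp15, another membrane-type enzyme, varied least: vehicle 48.1, 45.5 and 50.6 CPM, anti-PD1 37.4, 47.7 and 37.3 CPM, regorafenib 46.8, 42.6 and 49.5 CPM, and combination 32.9, 40.9 and 36.7 CPM. Its average regorafenib effect was -0.10 (SE 0.0814, adjusted p = 0.458). Mmp16 and Mmp25, the latter known from neutrophils, had average effects of -1.14 (adjusted p = 0.150) and 0.31 (adjusted p = 0.588).

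Among the inhibitors, Timp2 fell. Timp2 was at 834, 701 and 794 CPM in vehicle and 425, 770.0 and 709.8 CPM with anti-PD1. It was 358, 576 and 339 CPM with regorafenib and 340.3, 303 and 460.2 CPM in the combination. All 6 libraries with regorafenib were below every vehicle library, and anti-PD1 library 1 fell inside the treated range. Timp2 was picked by the test on the same libraries, so this separation adds no support. The regorafenib libraries were below vehicle for 10.2% of all genes and the combination libraries for 19.6%. The average fall was 0.83 on the log2 scale (log2 fold change -0.83, SE 0.185, 1.78-fold lower, edgeR adjusted p = 0.0243). It passed in 8 of the 12 fits that leave out a library and was lost without vehicle library 1 or 3, anti-PD1 library 2 or combination library 2, with a highest adjusted p of 0.0696.

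Timp1, the inhibitor induced in many inflamed tissues, was at 32.8, 30.4 and 35.6 CPM in vehicle and 13.7, 28.7 and 33.0 CPM with anti-PD1. It was 31.4, 29.3 and 14.5 CPM with regorafenib and 13.2, 20.8 and 20.9 CPM in the combination (average effect -0.43, SE 0.244, adjusted p = 0.283). Timp3, which binds to the matrix and also blocks ADAM and ADAMTS proteases, was at 50.4, 75.1 and 67.5 CPM in vehicle and 91.6, 71.2 and 43.6 CPM with anti-PD1. It was 45.8, 41.9 and 128 CPM with regorafenib and 111, 88.8 and 49.8 CPM in the combination, and these groups overlapped (average effect 0.22, SE 0.316, adjusted p = 0.702). Of the Timp3 exonic bases, 21.3% overlap exons of Syn3 on the opposite strand, and the strand setting of the counting is not given in the sources used here. Syn3 had 151 counts over all libraries, beside 22157 for Timp3. Timp4 had 40 counts over all 12 libraries, between 0 and 7 in each, and was not tested.

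Summed per kilobase, the Mmp levels were 2.88 ± 0.0467 times the Timp levels in vehicle (range 2.85 to 2.93) and 3.44 ± 0.502 times with anti-PD1 (2.901 to 3.90). The ratio was 3.88 ± 0.488 with regorafenib (3.34 to 4.29) and 4.91 ± 1.16 in the combination (4.08 to 6.24; SD, n = 3 throughout). All 6 libraries with regorafenib were above the vehicle range. So were anti-PD1 libraries 1 and 3, at 3.90 and 3.52, and both were above regorafenib library 2, at 3.34. No test was run on this ratio, which is of transcript levels and not of protein or activity. The Mmp sum itself was 704 ± 58.5 CPM per kilobase in vehicle and 610.3 ± 137 in the combination. The Timp sum was 244 ± 18.2 CPM per kilobase in vehicle and 125 ± 19.6 in the combination. Timp2 made up 81.5% ± 1.49 of the Timp sum in vehicle and 73.9% ± 5.21 with regorafenib.

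**Figure D5:**
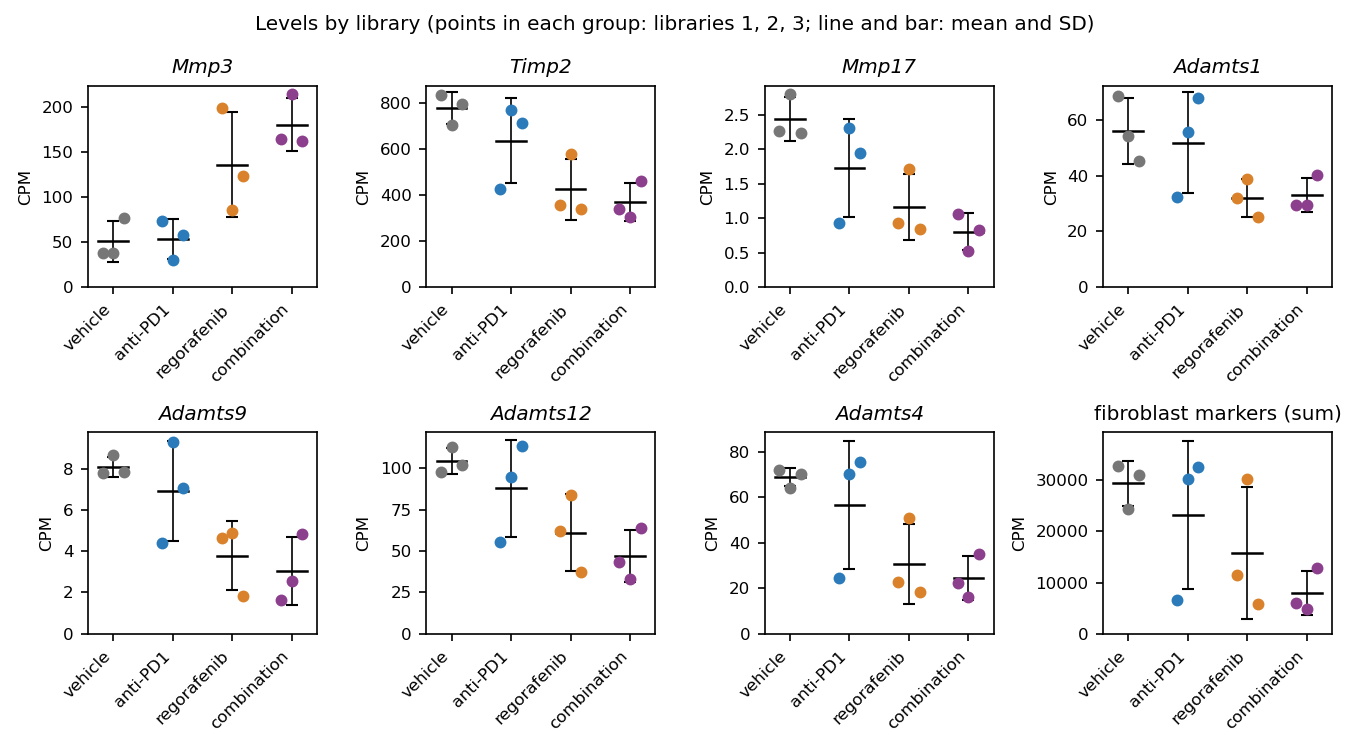
CPM by library for the 7 genes past the threshold in the average regorafenib effect and for the sum of the 12 fibroblast markers; points are libraries 1, 2 and 3 of each group, lines and bars the mean and SD (n = 3), axes start at 0. Anti-PD1 library 1 is low and regorafenib library 2 high in most of the genes that fell and in the fibroblast sum, while Mmp3 is above 80 CPM only in libraries with regorafenib.

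Of the 14 Adamts genes tested, 4 fell and 11 had a negative average regorafenib effect, beside 3.32% and 49.5% of all genes, with a median of -0.62. Adamts1, Adamts4 and Adamts9 belong to the 6 tested members that cleave proteoglycans, and Adamts12 cleaves the cartilage protein COMP. Adamts1 was at 68.7, 54.2 and 45.2 CPM in vehicle, 32.2, 55.4 and 67.7 CPM with anti-PD1, 32.0, 38.8 and 24.95 CPM with regorafenib, and 29.4, 29.5 and 40.0 CPM in the combination. All 6 treated libraries were below vehicle, and the fall was 1.66-fold (log2 fold change -0.73, SE 0.191, edgeR adjusted p = 0.0399). Adamts4 was at 71.8, 64.2 and 70.0 CPM in vehicle, 24.3, 70.0 and 75.7 CPM with anti-PD1, 22.8, 50.8 and 18.3 CPM with regorafenib, and 22.4, 15.9 and 35.0 CPM in the combination. It fell 2.28-fold (log2 fold change -1.19, SE 0.331, edgeR adjusted p = 0.0487), and anti-PD1 library 1 lay among the treated libraries.

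Adamts9 was at 7.80, 8.67 and 7.83 CPM in vehicle, 4.41, 9.29 and 7.08 CPM with anti-PD1, 4.65, 4.88 and 1.85 CPM with regorafenib, and 1.63, 2.58 and 4.85 CPM in the combination. The fall was 2.21-fold (log2 fold change -1.14, SE 0.313, edgeR adjusted p = 0.0462). Adamts12 was at 98.0, 113 and 102 CPM in vehicle, 55.4, 94.6 and 113 CPM with anti-PD1, 61.9, 83.9 and 37.5 CPM with regorafenib, and 43.2, 33.1 and 63.9 CPM in the combination. The fall was 1.79-fold (log2 fold change -0.84, SE 0.234, edgeR adjusted p = 0.0487). In these 4 genes all treated libraries were below all vehicle libraries, and anti-PD1 library 1 was below all vehicle libraries as well. The 4 genes were picked by the test on the same libraries, so this separation adds no support. Over all genes, the regorafenib libraries were below vehicle for 10.2% and the combination libraries for 19.6%. Anti-PD1 library 1 was below all vehicle libraries for 72.2% of the tested members and 35.9% of all genes. Each of the 4 passed in 3 of the 12 fits that leave out a library, those without anti-PD1 library 1, regorafenib library 2 or combination library 3. The highest adjusted p over the 12 fits was 0.0988 for Adamts1, 0.121 for Adamts4, 0.120 for Adamts9 and 0.115 for Adamts12.

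Adamts2, which removes the amino propeptide of fibrillar procollagens, was at 254, 245 and 255 CPM in vehicle and 82.2, 243 and 284 CPM with anti-PD1. It was 119, 237 and 76.7 CPM with regorafenib and 86.7, 56.9 and 163 CPM in the combination. The vehicle libraries were close together, every library with regorafenib was below them, and anti-PD1 library 1 was low as well. The average effect of -0.90 (SE 0.366) had an adjusted p of 0.139. The largest negative estimate was for Adamts16, at 12.5 ± 2.49 CPM in vehicle, 11.02 ± 8.41 with anti-PD1, 5.15 ± 5.47 with regorafenib and 2.64 ± 1.99 in the combination (SD, n = 3). Its average log2 fold change of -1.67 had an SE of 0.641 and an adjusted p of 0.120. Adamts7, Adamts8 and Adamts10 had average effects between 0.03 and 0.34, none past the threshold. Adamts5 (an aggrecanase), Adamts6, Adamts14, Adamts15 and Adamts17 had average effects from -0.69 to -0.18, with a smallest adjusted p of 0.314.

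The windows before the starts of 3 of the ADAMTS genes that fell are shown for contrast with the cluster above. They are the 120 bases before the RefSeq start on the gene's strand, with TATAAA and GGGCGG (or CCGCCC, its match on the other strand) in capitals. TGAGTCA was found in none of the windows of these genes.
Adamts1 (chr16:85803114-85803233, minus strand): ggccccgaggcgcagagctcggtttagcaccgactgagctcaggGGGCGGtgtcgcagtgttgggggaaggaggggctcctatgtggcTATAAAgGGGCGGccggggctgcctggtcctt
Adamts9 (chr6:92943535-92943654, minus strand): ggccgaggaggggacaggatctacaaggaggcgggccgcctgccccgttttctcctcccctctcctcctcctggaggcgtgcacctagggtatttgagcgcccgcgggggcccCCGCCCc
Adamts12 (chr15:11064653-11064772, plus strand): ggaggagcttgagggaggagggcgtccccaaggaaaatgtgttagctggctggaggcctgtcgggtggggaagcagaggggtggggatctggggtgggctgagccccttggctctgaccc
Adamts1 holds a TATA match at bases -32 to -27 with GC boxes on both sides, Adamts9 a GC box and Adamts12 none of the 3 motifs in this stretch. GGGCGG was found in 18 of the 32 members with a window and in 35.7% of all windows.

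Combination against vehicle gave 3 members past the threshold, Mmp3, Timp2 and Mmp17, which is 8.33% of those tested where 7.34% of all genes passed (edgeR). Mmp3 rose 3.54-fold (log2 fold change 1.82, SE 0.408, edgeR adjusted p = 0.0320). Timp2 fell 2.11-fold (log2 fold change -1.08, SE 0.263, edgeR adjusted p = 0.0374). Mmp17 fell 3.03-fold (log2 fold change -1.60, SE 0.400, edgeR adjusted p = 0.0398). The riser stands beside 5.03% of all genes and the 2 that fell beside 2.32%. All 3 calls ended without any 1 of the vehicle libraries and without combination library 1 or 2, as did nearly all calls: of 1246 genes in the full fit, 1 passed without each vehicle library, 23 without combination library 1 and 12 without combination library 2. For the 3 members the highest adjusted p was 0.120 for Mmp3, 0.137 for Timp2 and 0.145 for Mmp17; that of Mmp17 also ended without anti-PD1 library 3 or combination library 3. The log2 fold change was negative for 26 of 36 members (72.2%, against 48.2% of all genes), with a median of -0.55. At an unadjusted p under 0.05 there were 19 members, beside 27.9% of all genes, and DESeq2 passed 11, beside 15.4%. The count was 7 without anti-PD1 library 1, among 1517 genes, and 6 without regorafenib library 2 or 3, among 1427 and 1268 genes. All 3 combination libraries were below all 3 vehicle libraries for 19 of 36 members (52.8%, against 19.6% of all genes). They were above for 3 members, Mmp3, Mmp8 and Mmp12 (8.33%, against 19.6%).

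Regorafenib alone against vehicle gave no member past the threshold in edgeR, where 0.00589% of all genes passed. At an unadjusted p under 0.05 there were 9 members (14.1% of all genes), and DESeq2 passed 3 (Mmp12, Mmp3 and Timp2; 2.66% of the genes it tested). The smallest edgeR adjusted p was 0.190, for Mmp12. The log2 fold change was 1.42 (SE 0.404) for Mmp3, 1.75 (SE 0.466) for Mmp12 and -0.87 (SE 0.262) for Timp2. All 3 regorafenib libraries were below vehicle for 11 members (30.6%, against 10.2% of all genes) and above for 3 (8.33%, against 10.6%). The comparisons with vehicle share its libraries, so they are not independent of one another.

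No member passed the test for anti-PD1. In its average effect, and against vehicle alone, neither edgeR nor DESeq2 passed a member, and 1 member in each had an unadjusted p under 0.05 in edgeR. Over all genes edgeR passed 0% in both comparisons, with 8.75% and 5.17% at an unadjusted p under 0.05, and DESeq2 passed 0.171% and 0.0295%. The member with the smallest p in the average effect was Mmp15, at -0.28 (SE 0.0815, edgeR adjusted p = 0.558). Timp1 and Adamts12 had the smallest p of their families, at -0.42 (SE 0.244) and -0.32 (SE 0.233), with adjusted p of 0.591 and 0.644. The interaction, which asks whether anti-PD1 acts differently with regorafenib than without, gave no member past the threshold in edgeR or DESeq2 and none at an unadjusted p under 0.05 (0% and 2.65% of all genes in edgeR). Its SE was 0.561 for Mmp3, 0.368 for Timp2 and 0.538 for Mmp17 on the log2 scale, and differences of that size are within the error of these fits.

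The partners of these proteases were looked at through lists fixed by role, in the average effect of regorafenib; over all genes 6.16% rose and 3.32% fell. Of 20 tested activators and inhibitors, 3 rose and the median was 0.002. Spock2, a proteoglycan of the testican family, went from 2.81 ± 0.175 CPM in vehicle to 7.92 ± 0.674 CPM in the combination (SD, n = 3; average log2 fold change 1.01, SE 0.179, edgeR adjusted p = 0.0118). Lcn2, which binds MMP9, went from 9.16 ± 4.54 CPM in vehicle to 61.0 ± 29.6 CPM in the combination (average log2 fold change 1.60, SE 0.385, edgeR adjusted p = 0.0305). Lrp1, the receptor that clears many proteases with their inhibitors, went from 329 ± 7.49 CPM in vehicle to 589.7 ± 110.0 CPM in the combination (average log2 fold change 0.46, SE 0.120, edgeR adjusted p = 0.0389). Vehicle and combination tumours also differ in anti-PD1. The log2 fold changes are of the average regorafenib effect, so they do not give the ratio of these levels. Of 13 plasminogen system genes, Serpinf2, the plasmin inhibitor, fell by 1.30 on the log2 scale (edgeR adjusted p = 0.0238) from a level of 0.556 CPM. Of 12 ADAM genes, Adam23 fell by 1.05 (edgeR adjusted p = 0.0361). The smallest adjusted p was 0.0529 among the 6 ADAMTS-like genes and 0.0537 among the 16 other matrix proteases tested.

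Of 23 tested substrates, 2 fell, beside 3.32% of all genes, with a median of -0.38. Lum, a small proteoglycan that coats collagen fibrils, fell by 2.20 on the log2 scale in the average regorafenib effect (SE 0.477, edgeR adjusted p = 0.0223). Its level was 278 ± 23.7 CPM in vehicle and 35.9 ± 16.9 CPM in the combination, which also holds anti-PD1. Sparc, a collagen-binding protein, fell by 1.43 (SE 0.391, edgeR adjusted p = 0.0459). Of 22 tested inducers and transcription factors, 1 rose and 1 fell, where 6.16% and 3.32% of all genes did. Osm, a cytokine of the interleukin-6 family that induces Mmp genes, rose by 0.87 (SE 0.205, edgeR adjusted p = 0.0279). Jund, an AP-1 subunit, fell by 0.47 (SE 0.0822, edgeR adjusted p = 0.0117). The median of that list was 0.28, with 4 of 22 negative. Among the marker lists, to be read against the 3.32% of all genes that fell, the endothelial genes Emcn, Cldn5 and Tie1 fell (3 of 10), as did the pericyte genes Abcc9 and Kcnj8 (2 of 7) and the basal keratin Krt14 (1 of 11 squamous markers). The log2 fold change was negative for 8 of 10 endothelial markers, with a median of -0.33. It was negative for only 4 of 7 pericyte markers (median -0.21) and 7 of 11 squamous markers (median -0.03). The pericyte markers summed to a mean of 343 CPM in vehicle, 305 CPM with regorafenib and 314 CPM in the combination. The smallest adjusted p was 0.147 among 10 macrophage markers and 0.325 among 9 T and NK cell markers.

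The 10 members that were not tested had between 0 and 13 counts in any library: Mmp1a, Mmp1b, Mmp21, Mmp24, Timp4, Adamts3, Adamts13, Adamts18, Adamts19 and Adamts20. Adamts19 had no count in any library. A count of 0 in a library allows up to 3 counts of its total, by counting error alone.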

How the data were processed

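The deposited table holds raw read counts per Ensembl gene, 1 column for each of the 12 libraries, as the authors made it. Poly(A) RNA went into stranded libraries, per the labels' protocols; cutadapt 2.4, STAR 2.7.2a and build GRCm38 are named in the submitters' processing notes. How reads were counted (program, strand option, gene models) is not given in the sources used here. Of the columns, 0 lacked a sample.

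Genes passing edgeR's filterByExpr (minimum count 10, minimum total 15) were tested, 16974 of 55487. A quasi-likelihood model with TMM factors and robust dispersion (edgeR 4.0.16, limma 3.58.1, R 4.3.3) was fitted to 4 group means in 12 libraries, with 8 residual degrees of freedom and a common biological coefficient of variation of 0.227. The 6 comparisons were two-sided, with Benjamini-Hochberg adjustment over all genes and a threshold of 0.05. The code was tested on simulated counts. Levels are TMM-scaled CPM, per kilobase of union exon where genes are compared (GENCODE, GRCm38). Alternatives were DESeq2 1.42.0, RLE factors, no filter, a replicate block, a covariate of 4 Y-linked genes, and each library left out in turn.

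Library values were given for members past the threshold in any comparison, for the 4 highest per kilobase in each family, and for the members with the smallest p (3 per family for regorafenib, 1 for anti-PD1). Of each list, up to 3 genes past the threshold were named. The members and lists were chosen with earlier results of these data known.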

Additional observations from a re-analysis of the deposited data

Results flagged for a closer look

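For 2 members every library of the anti-PD1 groups moved one way without regorafenib and the opposite way with it, relative to the mean of the group without the antibody. Mmp28 (epilysin) had log2 ratios of group means of -0.26 without and 0.17 with regorafenib, a difference of 0.432. Adamts8 had ratios of 0.11 and -0.63, a difference of -0.744; its levels were at most 0.550 CPM. The difference was tested by the interaction term of the edgeR fit, where the adjusted p was 0.9998 for both. The pattern was looked for in the members only, and its share over all genes was not counted. The count of 2 is therefore not a result about the members.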

How the results depend on the processing

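In the average regorafenib effect 7 members passed, among 1610 genes. The count was 16 with the covariate of Y-linked genes (3342 genes), 11 with DESeq2 (2808) and 3 when rare genes were kept in (959 of 32550 tested), and it ran from 1 to 13 when a library was left out. In combination against vehicle 3 members passed, among 1246 genes; the count was 11 with DESeq2 (2614), 1 with rare genes kept in (663) and 13 with the covariate (2303), and it ran from 0 to 7 when a library was left out. For regorafenib alone against vehicle the count of 0, with 1 gene called in all, became 3 with DESeq2 (425) and 3 with the covariate (295). RLE factors gave the same member counts. In the counts given here for DESeq2, for rare genes kept in and for the covariate, those over all genes moved in the same direction as the members' counts. This did not hold for every library left out. Without combination library 3 the members' count in the average regorafenib effect fell, while that over all genes rose from 1610 to 1659. The cause was not tested.

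With the replicate number as a block, the counts were 1 (Mmp3; 504 genes) for the average regorafenib effect and 0 (11 genes) for combination against vehicle. The numbers were not shown to pair the samples: same-numbered libraries had correlations of their deviations from -0.81 to 0.75 over 18 pairs (median -0.07), and differently numbered ones from -0.60 to 0.64.

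Over the alternatives, 1047 of the member values in these 2 comparisons kept their sign and side of the threshold, 53 became past it, 81 were lost and 43 changed sign, none of them past the threshold in either fit. Leaving out a library took the average regorafenib effect (log2) from -0.16 to 0.22 for Adamts7, -0.13 to 0.24 for Adamts8, -0.17 to 0.23 for Mmp10 and -0.14 to 0.36 for Timp3, which was -0.11 with the covariate. For combination against vehicle the ranges were -0.42 to 0.19 for Adamts17, -0.61 to 0.0624 for Adamts6, -0.28 to 0.21 for Adamts7, -0.55 to 0.20 for Adamts8, -0.40 to 0.39 for Mmp10 and -0.26 to 0.28 for Mmp13. With the covariate it was 0.0193 for Adamts5, 0.0573 for Adamts6, 0.16 for Mmp13 and -0.12 for Timp3. Adamts7 was -0.0059 with DESeq2, -0.0058 with RLE factors, -0.0075 with rare genes kept in and -0.028 with the replicate block, where Mmp10 was -0.014. Mmp3 passed under all 17 alternatives in the average regorafenib effect. The median over members in the interaction moved from -0.06 to 0.28 with the covariate and to 0.31 without regorafenib library 2. Members with few counts, such as Mmp8, Mmp20 and Adamts8, are limited by depth.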
